A study of Mus musculus with 8 samples.

Results

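N6-methyladenosine (m6A) is a methylated form of adenosine found in messenger RNA. It is placed mainly by the METTL3 and METTL14 methyltransferase in a GGACU-like sequence context and is read by YTH-domain proteins, which can shorten the life of the transcript. In mammalian mRNA it is concentrated around stop codons and in 3′ untranslated regions (3′ UTRs), the stretches after the stop codon that also hold microRNA sites and AU-rich elements. The regions described here are the narrow 3′ UTR peaks: every deposited m6A peak annotated to a 3′ UTR and spanning at most 500 bp of genome. They number 10224 of the 20732 peaks in the deposited lists and lie in 2965 host genes.

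The cells were RAW264.7, a mouse macrophage line, all cultured alike. They were given 100 µM TBP, TCP or TIP for 24 h, or no treatment (control). The labels do not spell out these abbreviations. RNA fragments bound by an m6A antibody were sequenced (MeRIP-seq), in 1 immunoprecipitated library per condition. The peak lists of these 4 libraries were used; the 4 RNA inputs were not analysed here. Because a condition rests on a single library, differences have no replicate check and no p-value is given. All 95% intervals are exact Clopper-Pearson intervals of a share, or Newcombe intervals of a difference of shares. They cover counting error over peaks or genes only, and peaks of 1 gene share their source. The lists carry no read counts, so depth is unknown, and a missing peak means only that none was called. Coordinates are on GRCm38 (mm10).

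For the cell type, 10 macrophage markers and 20 markers of other cell types were looked up. Of the 10, 8 had a peak of any class in TBP, 6 in TCP, 5 in TIP and 8 in control. The colony-stimulating factor receptor Csf1r and the lipopolysaccharide co-receptor Cd14 had one in every list. The markers Adgre1 and Itgam had none in any list, Cd68 and Lyz2 none in TCP and TIP, and Spi1 none in TIP. Of the 20 markers of T, B, epithelial, fibroblast and endothelial cells, 0 had a peak in any list.

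Most of these peaks cannot be shown with their bases here, but 12 of them lay wholly inside sequence windows that RefSeq (GRCm38.p6) provides around gene starts. For the members in Txndc11 and Gm15471 this was the start of the host gene itself, and for the rest that of another gene. The 12 were searched on the transcript strand for the letters GGACT, the DNA form of the commonest m6A context, and 5 of the 12 held them. Those 5 were the Ncf1 peak, counted in each of the 4 lists, and the Pcif1 peak of TBP. The sites below are shown because they place those letters inside a peak called in all 4 lists (Ncf1) and a peak of the TBP list (Pcif1). Capitals mark GGACT, and bases run 5′ to 3′ along the transcript.
Ncf1, chr5:134221636-134221665, minus strand: aaggtttgaaatGGACTgagactctacagc
Ncf1, chr5:134221610-134221639, minus strand: cagcaaaggacaGGACTgggttaatctcca
Pcif1, chr2:164891161-164891185, plus strand: ctgctaGGACTcagcctcagggctc
Ncf1 encodes p47phox, the organiser subunit of the phagocyte NADPH oxidase. Its peak was called in all 4 lists, at ranks 140 of 6285 in TBP, 231 of 6981 in TCP, 495 of 3034 in TIP and 132 of 4432 in control. It spanned the same 75 bp in TBP, TCP and control, and 50 bp within them in TIP. Pcif1, which methylates adenosines next to the mRNA cap, had 1 narrow 3′ UTR peak in each compound list, at ranks 4234, 1158 and 2704 in TBP, TCP and TIP, and 0 in control. The printed bases are the whole 25 bp TBP peak. They lie inside the 125 bp TCP peak, whereas the TIP peak (chr2:164891136-164891160) adjoins them without overlap and held no GGACT. Of the 4 members 75 bp wide, 3 held GGACT, all of them the same Ncf1 site. Of 32851 RefSeq promoter-table stretches of that length, 6.84% held it. Of the 7 members 25 bp wide, 1 did, and of stretches of 25 bp 2.05% did. A site called in several lists is counted here once per list, so these members are not separate observations and give no rate to set against the stretches. A match is a description of these letters only, and the 12 were not chosen to stand for the rest.

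The lists differed in how many such peaks they held. TBP had 3162, TCP 3351, TIP 1470 and control 2241, which are ratios to control of 1.41, 1.50 and 0.656. TBP and TCP thus lay above control and TIP below. As a share of all peaks in the list the differences were small. They were 50.3% (49.1 to 51.6) of the TBP list, 48.0% (46.8 to 49.2) of TCP, 48.5% (46.7 to 50.2) of TIP and 50.6% (49.1 to 52.0) of control. Only 23, 36, 10 and 15 peaks annotated to 3′ UTRs in TBP, TCP, TIP and control were wider than 500 bp and were left out.

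The peaks were short in every list. Their median width was 50 bp in each of the 4, and peaks of exactly 25 bp, the commonest step of the widths, made up 34.2% in TBP, 37.2% in TCP, 35.3% in TIP and 33.7% in control. Peaks over 100 bp made up 9.80%, 10.4%, 6.67% and 8.34% in the same order. The median distance to the annotated 3′ end of the host gene was 1612 bp in TBP, 1634 bp in TCP, 1637 bp in TIP and 1650 bp in control. The lists hardly differed in this position, and 18.7% to 20.9% of the peaks lay within 500 bp of the gene end.

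The authors' score was used only to rank peaks within a list, because its scale is not stated and its lowest value differs between lists. Narrow 3′ UTR peaks sat in the middle of their lists. Their median percent rank (0 is best) was 46.7 in TBP, 51.1 in TCP, 49.8 in TIP and 49.7 in control, where narrow exon peaks outside UTRs had 52.1, 51.1, 49.8 and 49.7. Of the narrow 3′ UTR peaks, 10.2% in TBP, 9.94% in TCP, 9.32% in TIP and 10.8% in control were among the top 10% of their list. The difference to exon peaks was 0.270 percentage points in TBP (−1.27 to 1.79), 0.236 in TCP (−1.21 to 1.68), −2.54 in TIP (−4.81 to −0.293) and 0.947 in control (−0.909 to 2.78). Scores were heavily tied: the 1470 TIP members took 37 distinct values, and 132 of them shared rank 17. Tied peaks were given the best rank of the tie where a rank is printed, and the mean rank of the tie for percent ranks and the top 10%. A rank counts within its own list, and the lists differ in length.

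Most host genes carried a single narrow 3′ UTR peak. Hosts were 2091 genes in TBP, 2193 in TCP, 1098 in TIP and 1590 in control, of which 2 or more peaks were held by 633, 668, 231 and 417. These are shares of 30.3% (28.3 to 32.3) in TBP, 30.5% (28.5 to 32.4) in TCP, 21.0% (18.7 to 23.6) in TIP and 26.2% (24.1 to 28.5) in control. The order followed list length. The 1470 best-scored members were then taken from each list, which is all of TIP. The shares were 19.1% (16.8 to 21.5) in TBP, 19.1% (16.9 to 21.5) in TCP, 21.0% in TIP and 20.6% (18.3 to 23.1) in control. The TIP and control shares thus lay above those of TBP and TCP, but the intervals of the lists overlapped. Narrow exon peaks were grouped more: their share of genes with 2 or more was larger in every list, and 3′ UTR minus exon was −8.26 percentage points in TBP (−11.5 to −5.07), −9.80 in TCP (−12.9 to −6.73), −10.4 in TIP (−14.3 to −6.41) and −6.72 in control (−10.2 to −3.24). Within a gene, neighbouring 3′ UTR peaks lay a median of 200 bp apart in TBP, TCP and control and 198 bp apart in TIP, and 33.3% to 35.0% of the gaps were 100 bp or less. Peaks are counted per host gene, because the lists do not give the limits of the 3′ UTR itself.

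**Figure D1:**
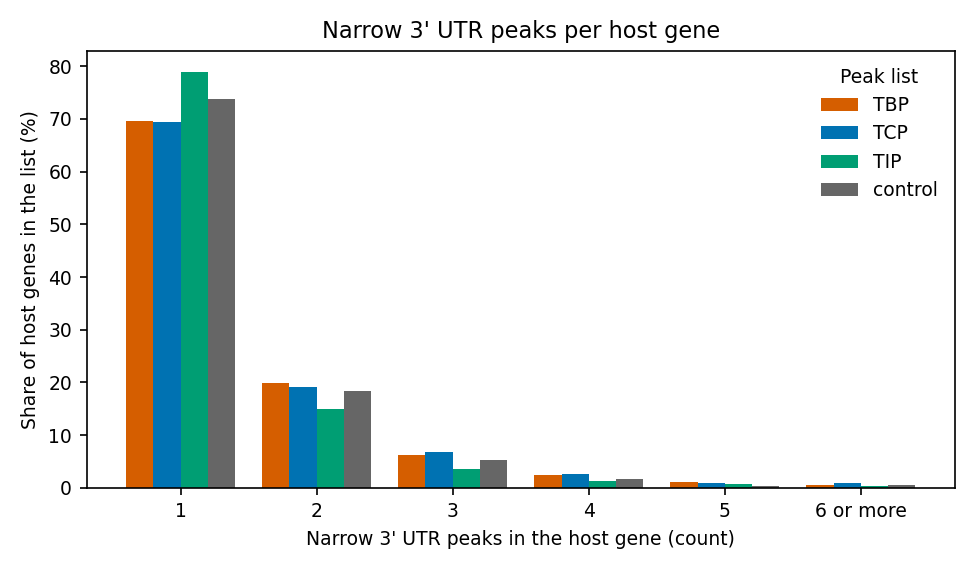
Share of host genes (percent, vertical axis) by the number of narrow 3′ UTR peaks they held (horizontal axis), with a bar for each of the TBP, TCP, TIP and control lists. Genes with a single peak make up 69.7% in TBP, 69.5% in TCP, 79.0% in TIP and 73.8% in control.

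The genes with the most narrow 3′ UTR peaks over the 4 lists were Nfat5, Itga4, Adnp, Notch2, Ankrd11, Rassf2, Rassf4 and Rragc. Nfat5, the transcription factor of the response to hypertonic stress, had 18 in TBP, 11 in TCP, 9 in TIP and 8 in control. These 46 peaks formed 38 separate regions, of which 32 were found in 1 list and 0 in all 4. They were spread over 39546 bp (chromosome 8, 107338994 to 107378539, plus strand), with 19 of the 46 within 10000 bp of the gene end. All but the peaks at 28049 to 28073 bp and at 40299 to 40523 bp lay within 12441 bp of that end. The 3′ UTR class here thus includes sites far inside the gene. Notch2, a Notch receptor, showed the opposite layout. It had 8, 6, 5 and 6 peaks in TBP, TCP, TIP and control within 2400 bp (chromosome 3, 98147708 to 98150107, plus strand), in 9 regions, of which 4 were found in all 4 lists. No other gene had more regions common to the 4 lists. Adnp, a homeobox transcription factor of chromatin complexes, had 6, 6, 7 and 7 peaks in the same order of lists, in 13 regions, 3 of them in all 4.

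Counts varied between lists in the remaining 5. Itga4, the integrin alpha 4 chain, had 9 peaks in TBP, 8 in TCP, 5 in TIP and 10 in control, with 1 of 16 regions in all 4 lists. Ankrd11, a chromatin regulator, had 5, 10, 4 and 4 in that order. Only 3 of these 23 peaks lay within 10000 bp of the gene end. Rassf2 had 9, 5, 5 and 4, and Rassf4 had 6, 11, 3 and 3; both encode Ras-association domain proteins. Rragc, a Rag GTPase that signals amino acid supply to mTORC1, had 8, 6, 3 and 5. Of their regions, Ankrd11 had 1 of 14 in all 4 lists, Rassf2 0 of 12, Rassf4 2 of 13 and Rragc 1 of 11.

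**Figure D2:**
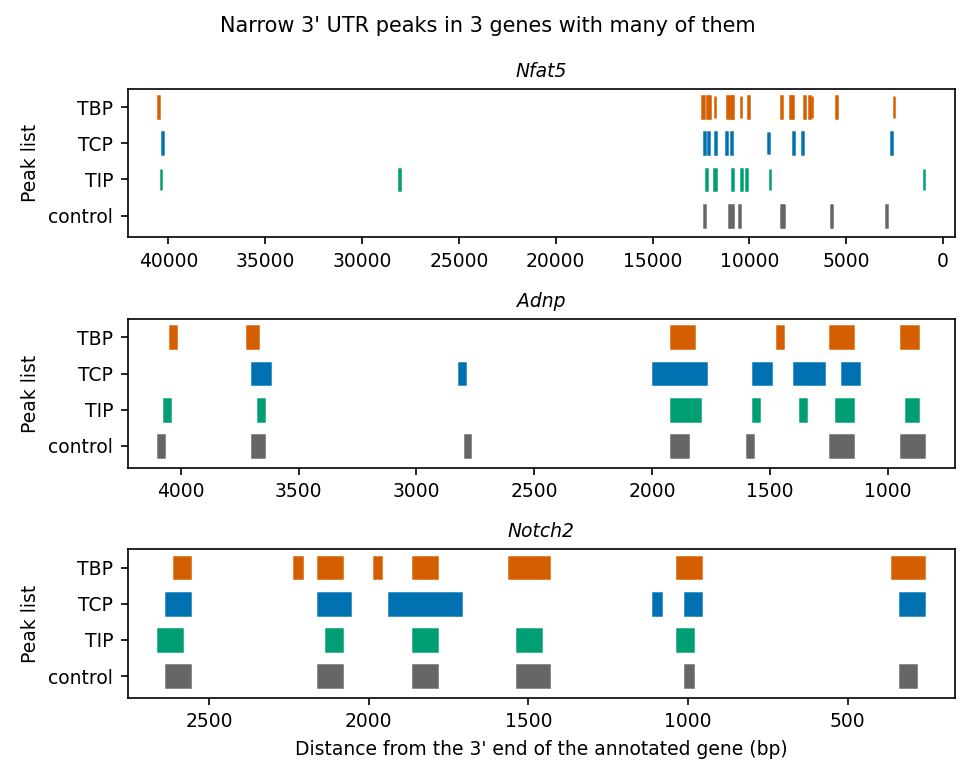
Position of each narrow 3′ UTR peak in Nfat5, Adnp and Notch2, as distance in bp from the 3′ end of the annotated gene (horizontal axis, drawn 5′ to 3′), with a row for each of the TBP, TCP, TIP and control lists. Boxes are peaks to scale; Notch2 has 4 of 9 regions in all 4 rows and Nfat5 has 0 of 38.

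Recurrence was measured by same-strand overlap of at least 1 bp. Merged over the 4 lists, the members formed 5703 regions. Of these 3340 (58.6%, 57.3 to 59.8) had a peak in 1 list, 1069 in 2, 678 in 3 and 616 (10.8%, 10.0 to 11.6) in all 4. The regions in all 4 lists lay in 548 genes, of which 48 held 2 or more, and their median merged width was 125 bp, against 50 bp over all regions. By gene instead of by region, 712 of 2965 host genes (24.0%) had a narrow 3′ UTR peak in every list. Of those 712, 196 had the same number of peaks in all 4.

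**Figure D3:**
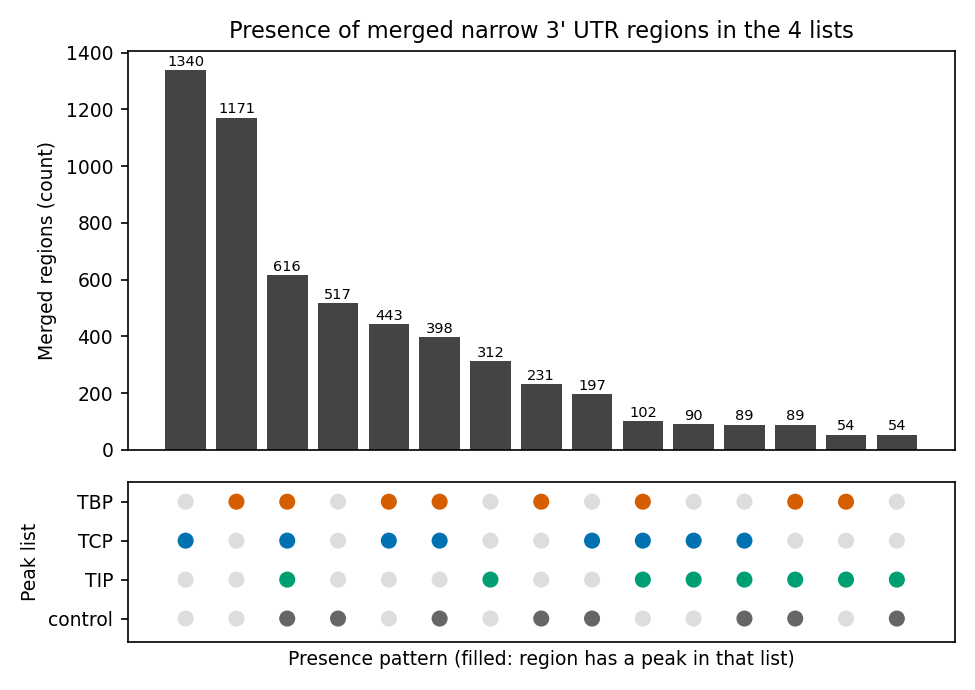
Number of merged narrow 3′ UTR regions (count, vertical axis) in each of the 15 presence patterns; filled dots show the lists with a peak. Regions found in TCP alone (1340) and in TBP alone (1171) are the most frequent, followed by those in all 4 lists (616).

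Ordered by mean rank, the leading 10 regions shared by every list were in Eif4g1, Mcl1, St8sia4, H2ax, Uck2, Itga4, Erp29, Scd2, Cln8 and Galnt7. Eif4g1, the scaffold of the cap-binding translation initiation complex, led them, at chromosome 16, 20692285 to 20692559, plus strand. Its best peak there ranked 7 in TBP, 8 in TCP, 10 in TIP and 4 in control. The region lay 461 bp from the gene end. Mcl1, an anti-apoptotic BCL-2 family member, had ranks 10, 15, 13 and 3 in that order (chromosome 3, 95660784 to 95661033, plus strand). St8sia4, a polysialyltransferase, had ranks 39, 1, 12 and 7 (chromosome 1, 95591532 to 95591881, minus strand), and its TCP peak was the best of that list. H2ax, the histone variant phosphorylated at DNA breaks, had ranks 53, 4, 2 and 9, and Uck2, a uridine-cytidine kinase, had 99, 7, 5 and 19. In each of these 5 genes the peak stood among the top 100 of every list.

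In the other 5 the TIP rank was 17, the value shared by 132 members. The Itga4 region (chromosome 2, 79326571 to 79326995, plus strand) held the peak ranked 1 in TBP and in control and ranked 5 in TCP. Erp29, a chaperone of the endoplasmic reticulum, ranked 23 in TBP, 28 in TCP and 26 in control. Scd2, a stearoyl-CoA desaturase, ranked 43, 31 and 29 in those lists (chromosome 19, 44303226 to 44303375, plus strand). Cln8, a membrane protein of the endoplasmic reticulum, ranked 42, 21 and 48, and Galnt7, an enzyme of mucin-type O-glycosylation, ranked 110, 9 and 44. Overlap did not require equal limits, and 484 of the 616 regions had exactly 1 peak in each list.

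Recurrence went with score rank in every list. In the best-scored 20% of members, the share overlapping a member of every other list was 55.3% (51.3 to 59.2) in TBP, 54.2% (50.3 to 58.0) in TCP, 62.3% (56.5 to 67.9) in TIP and 53.0% (48.2 to 57.7) in control. In the lowest-scored 20% it was 0.531% (0.145 to 1.35), 0.503% (0.137 to 1.28), 19.1% (14.6 to 24.3) and 3.01% (1.73 to 4.84). Ties were kept together, so these groups are only near 20%. The lowest held 754 members in TBP, 795 in TCP, 272 in TIP and 532 in control. The intervals of best and lowest did not overlap in any list. Width moved with the score, with a median of 100 bp in the best-scored and 25 bp in the lowest-scored members of each list. Members of exactly 50 bp were split by whether they stood in the better-ranked 50% of all members of their list. The share in the better-ranked group minus that in the rest was 11.3 percentage points in TBP (7.33 to 16.2), 15.1 in TCP (11.2 to 19.7), 13.5 in TIP (4.97 to 22.3) and 14.2 in control (7.78 to 21.2).

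**Figure D4:**
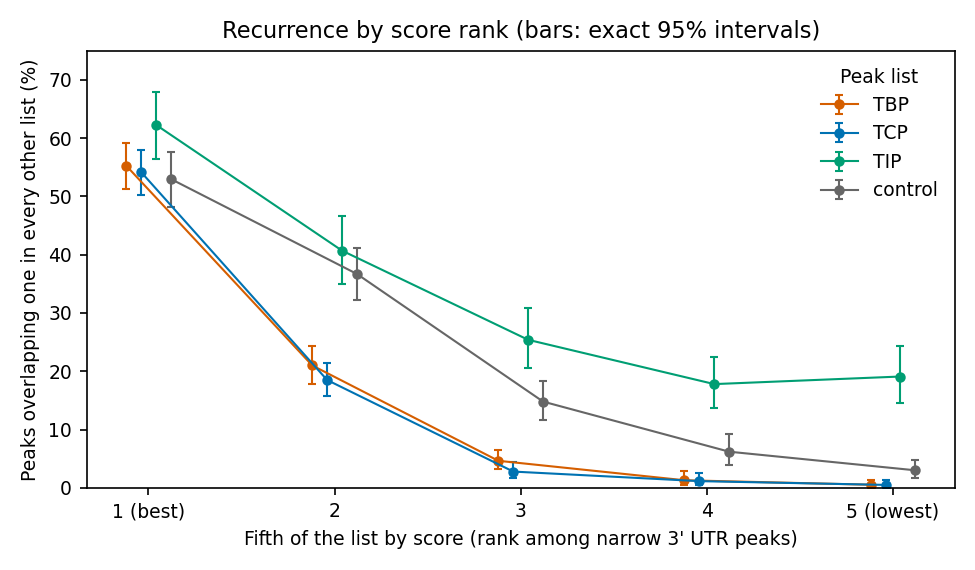
Share of narrow 3′ UTR peaks that overlap a member of every other list (percent, vertical axis) by 20% step of the list in score rank (horizontal axis), a line for each of TBP, TCP, TIP and control; bars are exact 95% intervals. The best-scored 20% lies between 53.0% and 62.3%, and the lowest-scored 20% between 0.503% in TCP and 19.1% in TIP. Ties were kept together, so the steps are only near 20%.

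Over all members the share overlapping one of every other list was 16.9% (15.6 to 18.2) in TBP, 15.6% (14.4 to 16.9) in TCP, 32.9% (30.5 to 35.4) in TIP and 22.7% (20.9 to 24.5) in control. The shortest list had the largest share and the longest the smallest. Narrow exon peaks, matched to exon peaks of the other lists, had 16.2%, 13.7%, 28.6% and 22.2% in that order. The 3′ UTR share was larger by 1.89 percentage points in TCP (0.179 to 3.60) and 4.37 in TIP (1.00 to 7.73). In TBP and control the difference was 0.727 (−1.17 to 2.61) and 0.463 (−2.07 to 2.98), with intervals that include 0. When only peaks with at least their list's median score were kept, the intervals of the TCP and TIP differences also include 0, at 0.971 (−1.49 to 3.42) and 4.36 (−0.605 to 9.29). Narrow 5′ UTR peaks recurred in 12.6% in TBP, 11.3% in TCP, 23.3% in TIP and 14.9% in control. The 3′ UTR share was above these by 4.28 to 9.62 points, with intervals apart from 0 in TIP (0.289 to 17.1) and control (1.60 to 12.6) but not in TBP and TCP.

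**Figure D5:**
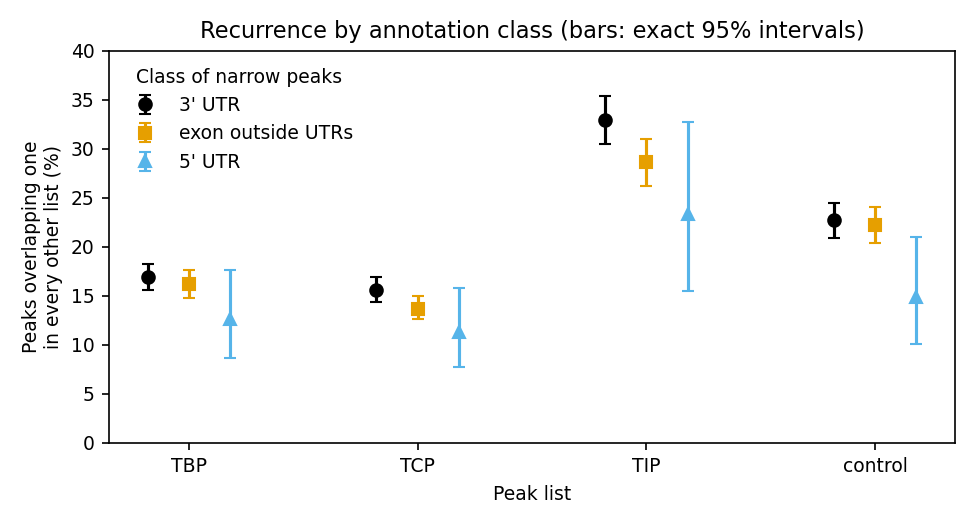
Share of narrow peaks that overlap a peak of the same class in every other list (percent, vertical axis) in the TBP, TCP, TIP and control lists, for 3′ UTR peaks, exon peaks outside UTRs and 5′ UTR peaks; bars are exact 95% intervals. The 3′ UTR point is the highest of the 3 classes in each list, at 32.9% in TIP and 22.7% in control, but its interval overlaps that of exon peaks in all 4.

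The design asks how each compound list differs from control. The 3 comparisons share the control library. In TBP, 1859 of 3162 members, 58.8% (57.1 to 60.5), overlapped no control member; over all narrow peaks of the TBP list the share without a control peak of their class was 60.6%. In the other direction 931 of 2241 control members, 41.5% (39.5 to 43.6), overlapped no TBP member, where all narrow control peaks gave 43.6%. The members stood close to the list as a whole. The differences to narrow exon peaks were −3.36 percentage points for TBP without control (−5.83 to −0.869) and −3.22 for control without TBP (−6.22 to −0.222).

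In TCP, 2092 of 3351 members, 62.4% (60.8 to 64.1), overlapped no control member, against 65.0% of all narrow TCP peaks. Of the control members, 991 (44.2%, 42.2 to 46.3) overlapped no TCP member, against 45.7% of all narrow control peaks. TIP ran the other way. There 676 of 1470 members, 46.0% (43.4 to 48.6), overlapped no control member, against 48.9% of all narrow TIP peaks, and 1457 control members (65.0%, 63.0 to 67.0) overlapped no TIP member, against 65.4%. In all 6 counts the share of members was below the share over all narrow peaks, which include the members themselves.

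At the same dose and time, the share without a control member was larger in TCP than in TBP by 3.64 percentage points (1.3 to 6.01). TIP minus TBP was −12.8 points (−15.9 to −9.72), and TIP minus TCP was −16.4 (−19.5 to −13.4). The order is that of list length. The 1470 best-scored members of each list were also compared, which is all of TIP, its lowest-scored members included. TCP still lay above TBP there, but TIP now lay above both. TIP then had 50%, TCP 46.2% and TBP 43.0%. The difference was 7.01 points for TIP minus TBP (3.40 to 10.6), 3.81 for TIP minus TCP (0.198 to 7.41) and 3.20 for TCP minus TBP (−0.396 to 6.78). With only members at or above their list's median score kept, TIP stayed lowest, at 41.8% against 52.9% in TBP and 58.2% in TCP. The 3 pairs of compounds were all that were compared, and the intervals do not cover the spread between cultures.

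A member with no partner in control often lay in a gene that control marked elsewhere. Of the 1815 such TBP members placed in a gene, 840 (46.3%, 44.0 to 48.6) lay in a gene with another narrow 3′ UTR peak in control, 204 (11.2%) in a gene with a control peak of another class or width, and 771 (42.5%, 40.2 to 44.8) in a gene with no control peak. In TCP the shares were 46.8%, 9.64% and 43.6% of 2053, and in TIP 60.4%, 10.4% and 29.2% of 661. For control members without a partner, the gene had no peak of any class in TBP for 256 of 916, in TCP for 243 of 973 and in TIP for 707 of 1433. Unpartnered members were the lower-ranked ones. Their median percent rank among members was 65.1 in TBP, against 25.3 for TBP members with a control partner, and likewise 64.0 against 25.8 in TCP and 62.3 against 38.5 in TIP.

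By gene, 834 of the 2091 TBP hosts (39.9%, 37.8 to 42.0) had no narrow 3′ UTR peak in control, and 333 of the 1590 control hosts (20.9%, 19.0 to 23.0) had none in TBP. Over genes with a narrow peak of any class the shares were 34.5% and 17.5%. For TCP the counts were 924 of 2193 (42.1%) and 321 of 1590 (20.2%), against 38.7% and 16.5%, and for TIP 247 of 1098 (22.5%) and 739 of 1590 (46.5%), against 18.4% and 41.1%. Genes in which the other list had no peak of any class were 667 gained and 244 lost in TBP (31.9% and 15.3% of hosts), 761 and 232 in TCP (34.7% and 14.6%) and 185 and 619 in TIP (16.8% and 38.9%). This rule is nearly that of the shares over all genes, but also counts wide peaks. By it the host shares lay below 34.5% and 17.5% in TBP, 38.7% and 16.5% in TCP, and 18.4% and 41.1% in TIP.

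Regions of the compound lists without a control peak are named here by rank alone. Pdia3, which catalyses disulfide bond formation in secretory proteins, had a region at chromosome 2, 121437649 to 121437823, plus strand. It ranked 11 in TBP, 82 in TCP and 470 in TIP and was without a control peak, although control had 1 peak of another class in the gene. Ctnnd1, which encodes p120 catenin, had a region (chromosome 2, 84602596 to 84602695, minus strand) ranked 84, 81 and 356 in TBP, TCP and TIP. The midpoint of the region lay 15549 bp from the annotated gene end, and control had 2 other narrow 3′ UTR peaks in Ctnnd1. Purb, a single-stranded nucleic acid binding protein, ranked 71, 225 and 318 in a region without a control peak, and control had 5 other narrow 3′ UTR peaks in the gene. In these 3 genes the site was present in all 3 compound lists, while control had a peak elsewhere in the gene.

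The regions in all 3 compound lists and not in control numbered 102 of 5703 (1.79%, 1.46 to 2.17), and 517 (9.07%, 8.33 to 9.84) were in control alone. Beside Ctnnd1, Purb and Pdia3, the best-ranked of the 102 were in Irf5 and Ddx6. Irf5, an interferon regulatory factor of Toll-like receptor signalling, ranked 432 in TBP, 354 in TCP and 17 in TIP (chromosome 6, 29536756 to 29536905, plus strand), with 0 narrow 3′ UTR peaks and 1 peak of another class in control. As percent ranks among members, which allow for ties and list length, these Irf5 ranks were 7.05, 5.13 and 4.86. Ddx6, a helicase of decapping and translational repression, ranked 289, 498 and 318, with 2 other narrow 3′ UTR peaks in control. Of the 5 genes, control thus had a narrow 3′ UTR peak elsewhere in 3.

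Other regions were among the best-ranked of 1 compound list and without a control peak. In TBP these were Mtdh (rank 19, also in TIP at rank 356) and Arf6 (rank 40, also in TIP at rank 2449), a small GTPase of endocytosis. In TCP they were Ybx3, a cold-shock RNA-binding protein (rank 66 in TCP, 17 in TIP), Hnrnpu, a nuclear RNA-binding protein (142 in TCP, 397 in TIP), and Mrps27, a mitochondrial ribosomal protein (145 in TCP, 17 in TIP). By percent rank among members, Ybx3 stood at 1.01 in TCP and 4.86 in TIP, and Mrps27 at 1.91 and 4.86. Mrps27 had 0 peaks of any class in control and in TBP. In TIP, 17 regions in named genes without a control peak tied at rank 17. Of these, 6 were also called in TBP and TCP, 5 in TCP only, 1 in TBP only and 5 in neither. Khdc4, Wdr3, Irf5, Nfat5 and Cipc, a circadian repressor, are named from the 17 because ties went to regions with more peaks over the lists, which favours those shared with TBP and TCP. Khdc4, Wdr3 and Cipc had 0 control peaks of any class, and Nfat5 had 8.

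Control regions missing from compound lists were led by Itga4 and by a region assigned to BC005537. The Itga4 region at chromosome 2, 79327746 to 79327845, ranked 16 in control and was called in none of the 3 compound lists, although these had 9, 8 and 5 other narrow 3′ UTR peaks in the gene in TBP, TCP and TIP. The BC005537 region (chromosome 13, 24812849 to 24813098, plus strand) ranked 2 in TBP and 2 in control and was missing in TCP and TIP. It overlapped the annotated end of the gene, with its midpoint beyond that end. Tmsb4x, the actin monomer-binding thymosin beta 4, ranked 18 in TBP and 23 in control (chromosome X, 167207343 to 167207467, minus strand). The gene had 0 peaks of any class in TCP and TIP. Ctsz, a lysosomal cathepsin, ranked 4 in TBP, 399 in TIP and 31 in control and was missing in TCP.

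Other control sites missing from a compound list were in RNA-binding and other genes. Ncl, which encodes nucleolin, ranked 137 in TBP, 1687 in TIP and 20 in control and had no narrow 3′ UTR peak in TCP. Serbp1, an mRNA-binding protein, ranked 34 in TBP, 37 in TCP and 16 in control at a site missing in TIP, where 2 other peaks of the class were called. Naa15, a subunit of the NatA acetyltransferase, ranked 56 in TCP and 72 in control at a site missing in TBP and TIP, and had 0 peaks of any class in TIP. Fignl1, Hnrnpa0 and Tardbp led the regions of control alone beside Itga4, at control ranks 49, 68 and 110. Fignl1 had 0 narrow 3′ UTR peaks in each compound list, with 4, 5 and 2 peaks of other classes in TBP, TCP and TIP. Hnrnpa0 and Tardbp, both RNA-binding proteins, had narrow 3′ UTR peaks elsewhere in the gene, 1, 2 and 2 for Hnrnpa0 and 3, 3 and 3 for Tardbp in TBP, TCP and TIP.

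Gene groups were taken from 19 lists with 435 genes, of which 433 matched a RefSeq symbol and 173 had a narrow 3′ UTR peak in at least 1 list. A gene counts as gained with a compound where its list had such a peak and the control list had 0, and as lost where control had one and the compound list 0. Counts are read beside the 39.9%, 42.1% and 22.5% of hosts gained in TBP, TCP and TIP and the 20.9%, 20.2% and 46.5% of control hosts lost, and no group is called particular.

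Of 23 matched genes of AU-rich element and 3′ UTR binding proteins, 10 had a peak in TBP, 13 in TCP, 11 in TIP and 8 in control, and all 8 control genes had one in every list. Zfp36l2, which recruits deadenylases to AU-rich elements, had 3, 3, 3 and 2 peaks in TBP, TCP, TIP and control. Caprin1 and G3bp1, partners in stress granules, had 2, 2, 2 and 2 and 2, 2, 1 and 2. Pum2, a Pumilio repressor, had 1, 4, 1 and 2. TBP gained 2 of these genes, TCP 5 and TIP 3, and 0 were lost.

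Of 27 genes of deadenylation and mRNA decay, 10 had a peak in TBP, 8 in TCP, 5 in TIP and 7 in control. Smg1, the kinase of nonsense-mediated decay, had 7, 5, 3 and 3 peaks in that order, Pan3, a deadenylase subunit, 4, 4, 2 and 3, and Upf1, the decay helicase, 2, 2, 1 and 1. Of 13 microRNA machinery genes, 3, 4, 3 and 4 had a peak. Ago2, the slicing Argonaute, had 4 peaks in TBP, 4 in TCP, 0 in TIP and 2 in control, and the Argonaute partner Tnrc6a had 2, 5, 1 and 1. Of 21 cleavage and polyadenylation genes, 6, 7, 5 and 5 had a peak, with Rbbp6 at 5, 4, 1 and 3 and the poly(A) polymerase Papola at 2, 4, 2 and 2. In the decay group TBP gained 5 genes and lost 2, TCP gained 2 and lost 1, and TIP gained 0 and lost 2. In the microRNA group 0 were gained, and TBP lost 1, TCP 0 and TIP 1. In the cleavage group TBP gained 1 and lost 0, TCP gained 2 and lost 0, and TIP gained 2 and lost 2.

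The m6A factors came next. Of 11 writers, 3 had a peak in TBP, 4 in TCP, 2 in TIP and 2 in control; Rbm15b, an adaptor of the methyltransferase complex, had 1 in each list and Wtap, its regulatory subunit, 1, 1, 0 and 0. Of 13 readers and erasers, 3 had a peak in TBP, 1 in TCP, 3 in TIP and 5 in control. The nuclear reader Ythdc1 had 3, 1, 1 and 1, and the cytoplasmic readers Ythdf2 and Ythdf3 had 1, 0, 1 and 1 each.

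Among macrophage identity genes (26 matched), the marked ones were 13 in TBP, 10 in TCP, 8 in TIP and 12 in control; Csf1r had 2, 1, 4 and 2, the lysosomal protease Ctsb 3, 4, 2 and 3 and the pore-forming Mpeg1 4, 2, 3 and 3. Of 26 JAK-STAT and SOCS genes, 11, 9, 5 and 8 had a peak. The 4 with the most were receptor chains: Ifnar2 with 5, 6, 4 and 3, Il10ra with 3, 5, 4 and 3, Il6st with 2, 5, 4 and 3 and Il6ra with 3, 3, 4 and 3 in TBP, TCP, TIP and control. All 4 were marked in every list. In the Toll-like receptor group of 28, 11 had a peak in TBP, 11 in TCP, 6 in TIP and 6 in control, with 6, 5 and 2 gained and 1, 0 and 2 lost. Tlr7, a sensor of single-stranded RNA, had 3, 3, 0 and 1, Tlr13, a sensor of bacterial ribosomal RNA, 2, 3, 0 and 0, and the adaptor Ticam2 2, 3, 1 and 3.

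Inflammatory regulators and effectors followed. Of 19 NF-κB genes, 2 had a peak in TBP, TCP and TIP and 3 in control, namely Nfkb1 and Otulin with 1 in each list and the inhibitor Nfkbia with 1 in control and 0 elsewhere. Of 26 cytokines and chemokines, 3, 4, 2 and 5 had a peak; Tnf and Tnfsf9 had 1 in each list. The Tnf peak ranked 1379 in TBP, 1354 in TCP, 547 in TIP and 430 in control. Of 23 immediate early transcription factors, 4, 8, 3 and 7 had a peak, and Jun had 2 in each list. Of 29 MAP kinases and phosphatases, 7, 9, 5 and 7 did, with the p38 kinase Mapk14 at 3, 3, 2 and 1.

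Among stress groups, 8 of 22 NRF2 and antioxidant genes had a peak in TBP, 4 in TCP, 2 in TIP and 5 in control. Keap1, the repressor of NRF2, had 3 in each list, and Nfe2l2, which encodes NRF2, had 0, 1, 0 and 1. Of 24 genes of endoplasmic reticulum and integrated stress, 12, 12, 6 and 10 had a peak, with 4, 5 and 3 gained and 2, 3 and 7 lost in TBP, TCP and TIP. Xbp1, a transcription factor of the unfolded protein response, had 1, 2, 2 and 2, and the chaperone Canx 3, 0, 1 and 1. Of 24 cell death genes 3, 4, 4 and 4 had a peak, with the pro-apoptotic Bid at 3, 2, 2 and 2. Of 26 xenobiotic and nuclear receptor genes 7, 6, 5 and 4 did, and the cholesterol exporters Abca1 and Abcg1 had 2, 2, 1 and 0 and 2, 2, 1 and 1. Of 20 integrins and adhesion genes 5, 5, 2 and 7 did, and of 34 cytosolic ribosomal proteins 5, 1, 1 and 4, with Rps3 at 1 in each list.

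A limit applies to genes that overlap on opposite strands. Within the lists, 278 pairs of members overlapped on opposite strands, 97 in TBP, 81 in TCP, 38 in TIP and 62 in control, and 141 of the pairs had identical scores. Of the 278, 138 lay in a different host gene on each strand. Whether the reads were assigned by strand is not given in the sources used here, so reads of such genes cannot be told apart.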

How the data were processed

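The authors deposited a peak list for each of the 4 immunoprecipitated libraries, with position, width in bp, strand, annotation class, nearest gene and a score of unstated scale per peak, per the file headers. Per the submitters' processing notes, which state no roles, the builds were mm10 and GRCm38 and the tools included HISAT2 2.1.0, ChIPseeker 1.26, HOMER 4.11, SAMtools 1.9 and Trim Galore 0.6.5. Which program called the peaks, at what threshold and with which input, is not given in the sources used here.

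Members were rows annotated to a 3′ UTR and 500 bp wide or less. The host was the nearest gene where it enclosed the peak on its strand (28.3% of 10224 members), else the single RefSeq gene there (65.8%, and 4.00% where the tables held no strand), and 1.89% stayed unplaced. It differed from the nearest-gene column for 31.4% of placed members. Overlap and merging were computed in Python 3.11.15 (pandas 2.3.3, scipy 1.17.1) and tested on simulated data. Alternatives changed the width limit, overlap, partner class, host rule, score minimum and list length. Named were the 10 best-ranked regions shared by every list, those gained or lost with the best rank, the 8 genes with the most members and up to 4 genes per list, not all of which are told. Members and gene lists were chosen with earlier results of these data known.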

Additional observations from a re-analysis of the deposited data

Results flagged for a closer look

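TBP and TCP lay on one side of control and TIP on the other in 3 quantities, each resting on 1 library per condition, so the difference was not tested. The ratio of narrow 3′ UTR peaks to control was 1.41 for TBP, 1.50 for TCP and 0.656 for TIP, and the ratio of host genes was 1.32, 1.38 and 0.691. The share of host genes with 2 or more such peaks differed from that of control by 4.05 percentage points for TBP, 4.23 for TCP and −5.19 for TIP. With the 1470 best-scored members of each list, which is all of TIP, that share was 19.1% in TBP, 19.1% in TCP, 21.0% in TIP and 20.6% in control. The depth of the libraries is unknown, and its part in these differences was not tested.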

How the results depend on the processing

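Of 84 alternative values, 46 kept within the interval or the 1.5-fold range of the reported one. This count leaves out 2 differences to exon peaks, in TCP and TIP. They kept within the reported interval, but their own interval then included 0. Of the differences to exon peaks, 0 with an interval apart from 0 changed direction. Differences between compounds were not among the 84 values. At equal list length TIP minus TBP changed from −12.8 to 7.01 points and TIP minus TCP from −16.4 to 3.81. Removing the width limit, asking for an overlap of at least 50% of the shorter peak and allowing partners of any class moved none of the values they were applied to. With peaks at or above the list median score, host genes were 1338 in TBP, 1392 in TCP, 624 in TIP and 971 in control, and 20.2%, 20.0%, 16.3% and 18.4% of them held 2 or more. That share was 33.9%, 33.1%, 24.7% and 29.3% with the nearest gene of the lists and 22.4%, 23.4%, 15.2% and 19.4% with peaks within 100 bp counted as 1. Members without a control partner were 52.9% in TBP, 58.2% in TCP and 41.8% in TIP at or above the median score. They were 43.0%, 46.2% and 50% at equal list length, where TIP changed from the lowest to the highest and TCP stayed above TBP. Equal length shortened the other lists to their best-scored members but kept all of TIP. Control members without a partner were 31.8% for TBP and 38.8% for TCP at or above the median, and 46.7% for TCP and 50.9% for TIP at equal length. In an alternative added after seeing the data, members at or above the median set against all members of the other list gave 38.4% in TBP, 43.8% in TCP and 35.3% in TIP, and for control 25.7%, 30.8% and 45.8%. Regions in all 4 lists were 15.6% with members within 100 bp merged, 12.0% at or above the median and 16.7% at equal length. The difference in recurrence to exon peaks at or above the median was 0.971 in TCP, 4.36 in TIP and −2.69 in control. The cause of these shifts was not tested. No paired analysis was possible because each condition has 1 library, and no replicate could be left out for the same reason. Library depth is unknown, so the precision behind a peak cannot be given.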
